A study of Homo sapiens with 4 samples.

Results

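The protein-coding genes of the large subunit of the cytosolic ribosome were examined in RNA from extracellular vesicles (EVs) released by PC3, an established line of prostate cancer cells first taken from a metastasis in bone. The genes were chosen by name, as every protein-coding gene of GENCODE release 44 whose symbol is RPL with a number and an optional A, X, L or L1, or RPLP0, RPLP1 or RPLP2. This gave 52 of the 19629 protein-coding genes, or of 56948 genes of any type, with an identifier in the count tables. The EVs came from unmodified, untreated PC3 cells grown in a medium with EV-depleted serum, and 2 total RNA libraries, replicates 1 and 2, were prepared with a TruSeq stranded kit. The study has 1 condition for this assay, with no parental cells and no EVs of another line beside it, so enrichment in EVs over cells could not be measured and no test between conditions was made. Small RNA libraries of PC3 EVs hold miRNAs and were not used here.

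Ribosomes are built from a small and a large subunit, and the large subunit joins amino acids into protein, holds the tunnel through which the new chain leaves and carries the stalk that recruits elongation factors. Most of its proteins are encoded by 1 expressed gene each, alongside many processed pseudogenes, which are copies of the mRNA inserted elsewhere in the genome. The mRNAs of these proteins typically begin with a C followed by an unbroken run of pyrimidines, the terminal oligopyrimidine (TOP) tract, through which mTOR and LARP1 control their translation together.

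The start sites listed by RefSeq (GRCh38.p14) show this shared feature, which the choice by name did not use. A tract was counted where the base at a listed start was C and at least the next 4 bases were C or T on the gene's strand. Of the 42 genes with a listed start, 29 (69.0%) had a tract at one of their starts, against 968 of 15251 protein-coding genes (6.35%) and 1429 of all 35116 listed starts (4.07%). The longest tract, in RPL39, was 19 bases, and the median over the 29 genes was 8. RPL3L, RPL5, RPL7, RPL8, RPL23, RPL23A, RPL30, RPL37 and RPL39L were among those with no listed start. The first 8 sequences below are the starts of 4 of the genes with the highest levels, of the stalk protein gene RPLP2 and of 3 genes with few or no reads, and the last 2 are starts without a tract. Each runs 5′ to 3′ from 10 bases before the start to 20 bases from it, with the tract in capitals.
RPL35 (chr9:124861938-124861967, minus strand): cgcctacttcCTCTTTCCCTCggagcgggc
RPL12 (chr9:127451387-127451416, minus strand): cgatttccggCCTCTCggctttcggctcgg
RPL36 (chr19:5690285-5690314, plus strand): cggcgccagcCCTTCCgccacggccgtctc
RPL13 (chr16:89560672-89560701, plus strand): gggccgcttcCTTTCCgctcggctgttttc
RPLP2 (chr11:809957-809986, plus strand): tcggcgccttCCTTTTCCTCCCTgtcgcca
RPL7A (chr9:133348208-133348237, plus strand): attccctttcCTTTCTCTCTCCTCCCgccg
RPL21 (chr13:27251548-27251577, plus strand): ccgcctctttCCTTTCggccggaaccgcca
RPL36A (chrX:101391001-101391030, plus strand): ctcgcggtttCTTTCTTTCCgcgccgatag
RPL19 (chr17:39200273-39200302, plus strand): tctccccttcgcagataatgggaggagccg
RPL10A (chr6:35468391-35468420, plus strand): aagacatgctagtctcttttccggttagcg
Genes of very different level thus shared the tract, from RPL35 and RPL12, which were among the highest, to RPL36A, which had no read. The median level was 44.6 CPM per kilobase over the 29 genes with a tract and 7.20 over the 13 listed genes without one. Leaving out the paralogues named L or L1, it was 44.7 over 28 genes and 14.6 over 10. A start without a match says only that these letters are not at the listed base.

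HTSeq counted 489170 reads on genes in replicate 1 and 475942 in replicate 2, which were 2.50% and 2.16% of the reads in the files. Reads with more than 1 alignment made up 45.5% and 48.1% of the files and were not counted on any gene. A read equals 2.04 and 2.10 CPM (counts scaled to a total of 1000000 gene counts), and the smallest amount taken as shown, 3 reads, is 6.13 and 6.30 CPM. Levels compared between genes are CPM per kilobase of the gene's merged exons. Intervals and floors cover counting error only, since amplified reads are not independent molecules. Low counts were mostly even, with 74.3% even in replicate 1 and 70.9% in replicate 2 over protein-coding genes with 1 to 20 reads, while the intervals treat each read as independent. Of the 11 large-subunit genes with 1 to 20 reads in each library, 8 had an even count in replicate 1 and 7 in replicate 2, and over all with a read, the share was 54.3% and 60.9%. PC3 markers KRT8 (966 and 1088 reads) and KRT18 (94 and 87 reads) were present, CD9 and KRT7 were at 0 in both, and 10 of 12 genes of other lineages or known to be lost or silent in PC3 were at 0 in both, while COL1A1 had 35 and 1 reads. In bulk RNA, fewer EVs holding an mRNA and fewer copies per EV cannot be told apart.

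The strand setting of the counting is not given in the sources used here, so reads of a gene and of a gene on the opposite strand cannot be told apart with certainty. Of the 52 genes, 17 share exon sequence with a gene on the opposite strand that is in the tables. In 5 of the 20 such pairs, the opposite gene had more reads in both libraries. RPL30-AS1, a lncRNA gene that overlaps 871 bases of RPL30 exon, had 1161 and 1171 reads, while RPL30 had 26 and 43. ENSG00000264577, a lncRNA gene opposite RPL23A (155 shared bases), had 1468 and 1587 reads, beside 98 and 131 for RPL23A. ENSG00000280195, opposite RPL10 (671 shared bases), had 465 and 590 reads, beside 101 and 98 for RPL10. WDR38, which overlaps RPL35 by 11 bases, had 236 and 327 reads, beside 221 and 198 for RPL35. The lncRNA gene ENSG00000265496 had 22 and 16 reads opposite RPL17, which had none. The part that overlap or strand plays in the values below was not tested. RPL8, RPL12 and RPL13, 3 of the 5 highest genes, share no exon with an opposite-strand gene in the tables. The strand setting decides which reads are counted for such genes too. Reads that HTSeq placed on no gene made up 36.3% of the file in replicate 1 and 35.4% in replicate 2. Whether reads of these mRNAs were among them was not tested.

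Reads were counted on most genes of the large subunit. At least 1 read in both libraries was found for 44 of the 52 genes (84.6%), against 21.9% of all protein-coding genes, and at least 10 reads in both for 37 (71.2%), against 11.6%. The summed reads were 4763 in replicate 1 and 3944 in replicate 2, or 1.63% (95% Wilson interval 1.58 to 1.67%) and 1.43% (1.38 to 1.47%) of the protein-coding counts. The mean share was 1.53% ± 0.140 (SD, n = 2), and the intervals of the libraries did not overlap. The share depends on its denominator: it was 0.901% ± 0.103 (SD, n = 2) of all gene counts and 2.43% of the protein-coding counts without RPS29 and the mitochondrial genes. Without the 17 genes that overlap an opposite-strand gene, the others made up 1.09% of the protein-coding counts.

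The reads were unequally spread over the subunit. The 5 genes with the most reads held 35.3% of the members' reads in replicate 1 and 37.8% in replicate 2, while the median gene had 46 and 43.5 reads. When all protein-coding genes were ordered by mean CPM, 22 of the 52 were found among the first 500, which are 2.55% of all, and 9 were among the 100 highest. The median level of the 52 genes was 32.3 CPM per kilobase in replicate 1 and 24.6 in replicate 2, with 27.7 for the mean of both, while the median of all protein-coding genes was 0. With the longest transcript in place of the merged exons, the median was 55.1. The merged exons of the 52 genes had a median length of 3372.5 bases and the coding sequences one of 474.

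**Figure D1:**
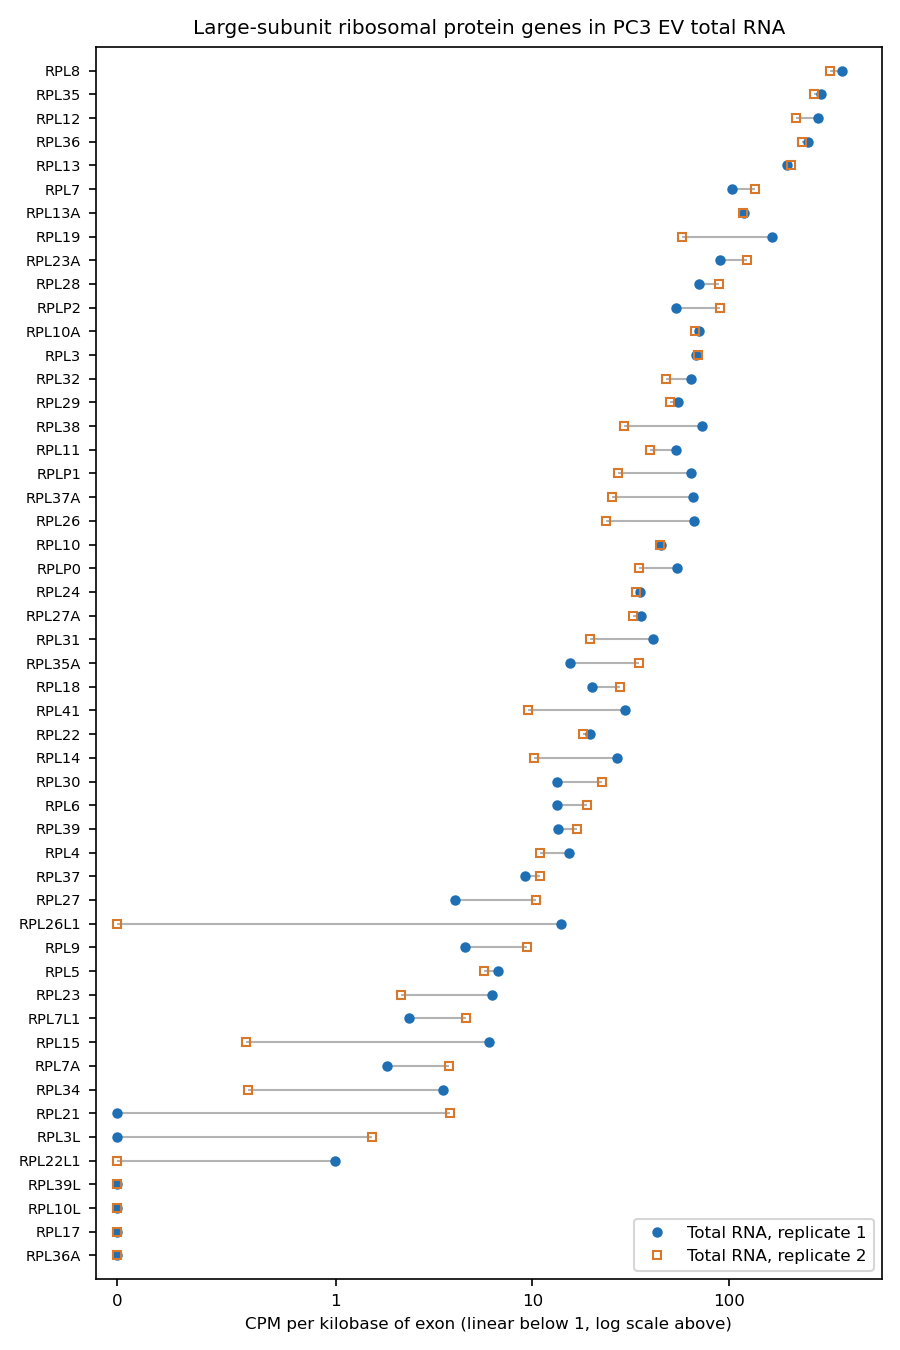
Level of 51 of the 52 genes in CPM per kilobase of exon (x axis, linear below 1 and log scale above), with a filled point for replicate 1, an open square for replicate 2 and a line between them. RPL8 was highest at 374 and 326, and 4 genes lie at 0 in both libraries.

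RPL8, a protein close to the peptidyl transferase centre (ENSG00000161016, chromosome 8), had the highest level, with 395 and 335 reads, or 374 and 326 CPM per kilobase. RPL35, at the tunnel exit, followed with 221 and 198 reads, or 294 and 271 CPM per kilobase. Both values of RPL8 were above both values of RPL35. This order depends on the length used. Merged exons are 2159 bases for RPL8 and 1535 for RPL35, while the coding sequences are 771 and 369. Per base of coding sequence, RPL35 would be the higher of them in both libraries. RPL12, at the base of the stalk, had 339 and 255 reads, or 283 and 218 CPM per kilobase. RPL36 had 281 and 254 reads, or 253 and 235 CPM per kilobase. Both values of RPL35 were above both values of RPL36, while the range of RPL12 overlapped both. Before division by length, RPL36 was higher, with 574 and 534 CPM against 452 and 416 for RPL35. The order of RPL35 and RPL36 thus rests on the length used. Merged exons are 1535 bases for RPL35 and 2271 for RPL36, and the longest transcripts 785 and 907. RPL13 had 373 and 380 reads, or 197 and 207 CPM per kilobase, below both values of RPL12 and RPL36. The order of RPL13 and RPL12 also rests on the length used. Merged exons are 3866 bases for RPL13 and 2453 for RPL12, while the longest transcripts are 2385 and 2275. Before division by length, RPL13 was higher in both libraries, with 763 and 798 CPM against 693 and 536. RPL13 had the highest mean CPM of the family before division by length, at 780.5, and ranked 43 among protein-coding genes.

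Other genes among the 10 highest were lower and less settled in order. RPL7 had 137 and 175 reads, or 104 and 136 CPM per kilobase. RPL13A, best known apart from the ribosome for a role in the interferon response, had 189 and 181 reads, or 120 and 118 CPM per kilobase. The ranges of RPL7 and RPL13A overlapped. RPL19 had 292 and 98 reads, or 166 and 57.3 CPM per kilobase, so its place rested on replicate 1. RPL23A had 98 and 131 reads, or 89.8 and 123 CPM per kilobase. Of the 10 highest genes of each library, 9 were the same, among them RPL8, RPL35, RPL12, RPL36, RPL13, RPL7, RPL13A and RPL23A.

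All 4 genes of the stalk, the lateral arm that binds elongation factors, had reads in both libraries. RPLP0, which anchors the stalk, had 106 and 66 reads, or 54.3 and 34.8 CPM per kilobase. RPLP1 had 102 and 42 reads, or 64.1 and 27.1 CPM per kilobase. Its partner RPLP2 had 43 and 70 reads, or 53.7 and 89.8 CPM per kilobase. RPLP1 was therefore above RPLP2 in replicate 1 and below it in replicate 2, and the stalk genes other than RPL12 overlapped in range.

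RPL5 and RPL11 bind the 5S ribosomal RNA and, when free, inhibit MDM2. RPL11 had 70 and 50 reads, or 53.8 and 39.5 CPM per kilobase. RPL5 had 12 and 10 reads, or 6.65 and 5.70 CPM per kilobase. RPL11 was higher in both libraries without overlap, although their proteins enter the ribosome as one particle.

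Of the 8 genes of proteins at the exit tunnel, 7 had reads in both libraries, and their levels ran from 0 to 283 CPM per kilobase with a median of 37.6. Below RPL35, RPL19 and RPL23A came RPL26, with 80 and 28 reads, and RPL31, with 106 and 49. RPL4 had 42 and 29 reads, or 15.3 and 10.9 CPM per kilobase. RPL39, the shortest of the tunnel proteins, had 14 and 17 reads, or 13.4 and 16.8 CPM per kilobase. RPL17 had no read in either library.

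Besides RPL8, the other two genes of the peptidyl transferase region or of late joining were also among the 500 highest. RPL3, which lies near the catalytic centre, had 156 and 155 reads, or 67.7 and 69.1 CPM per kilobase. RPL10, one of the last proteins to join, had 101 and 98 reads, or 44.9 and 44.7 CPM per kilobase. These 2 genes differed little between the libraries.

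Genes in which variants cause Diamond-Blackfan anaemia, a failure of red cell production, were present throughout the range. All 9 had reads in both libraries, with a median of 25.2 CPM per kilobase, beside 27.7 for the 52 genes. None of the 9 is a paralogue named L or L1, and without those paralogues the family median was higher, at 39.5. Their levels ran from 283 CPM per kilobase for RPL35 to 3.30 for RPL15, which had 21 reads in replicate 1 and 2 in replicate 2. RPL18 had 38 and 51 reads, RPL35A had 22 and 48, and RPL27 had 4 and 10.

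The paralogues named L or L1, several of them mainly expressed in muscle or testis, had few reads. Of the 6, 1 had a read in both libraries, not far from the 21.9% of all protein-coding genes. That gene, RPL7L1, which takes part in ribosome assembly, had 9 and 17 reads, beside 137 and 175 for RPL7. RPL26L1 had 8 reads and 0, beside 80 and 28 for RPL26. RPL3L, the form of RPL3 in heart and skeletal muscle, had 0 and 2 reads, beside 156 and 155 for RPL3. RPL22L1 had 1 read and 0, beside 45 and 40 for RPL22. RPL10L and RPL39L, known from testis, had 0 in both, beside 101 and 98 for RPL10 and 14 and 17 for RPL39. RPL3L, RPL22L1, RPL10L and RPL39L were thus under 3 reads in each library and not detectable at this depth.

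**Figure D2:**
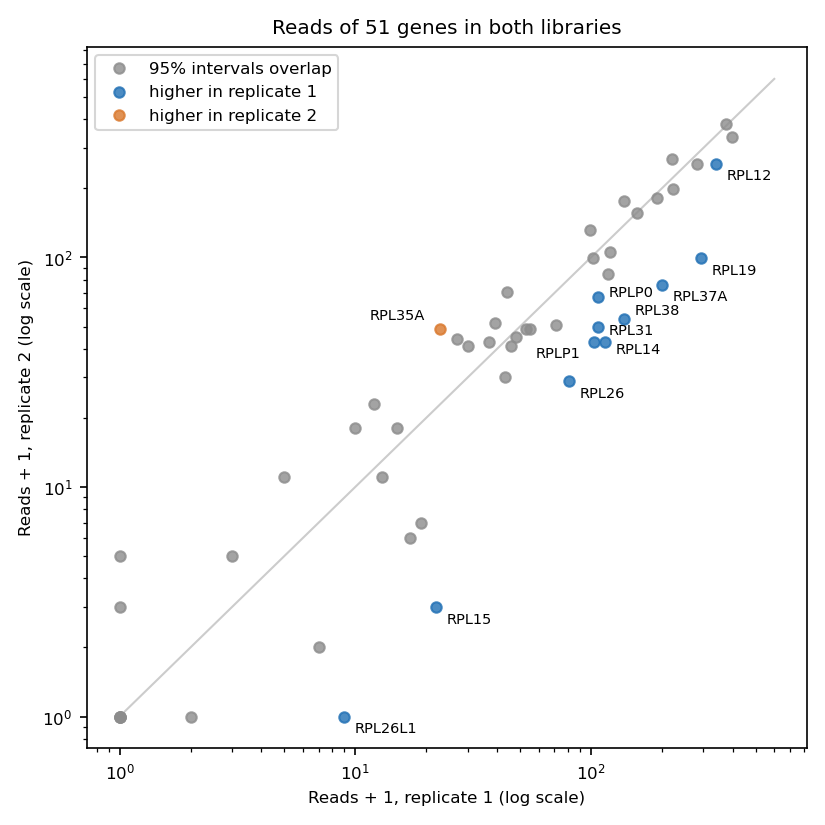
Reads plus 1 of 51 of the 52 genes in replicate 1 (x axis) and replicate 2 (y axis), both on log scales, with the line of equal values. Genes whose 95% Wilson intervals did not overlap are coloured and named: 11 lie below the line and 1, RPL35A, above it.

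The libraries gave a similar order of the genes, with a Spearman correlation of 0.933 across the 52 genes, which are not independent replicates. For 36 of the 48 genes with a read in either library, the 95% Wilson intervals of the shares of gene counts overlapped. Intervals did not overlap for 12 genes. Of the 48, 11 were higher in replicate 1, a share close to the 21.1% of the protein-coding genes with a read. Of the same 48, 1 was higher in replicate 2, a share below the 22.9% of those protein-coding genes. RPL19 had 597 CPM (95% Wilson interval 532 to 669) in replicate 1 and 206 (169 to 251) in replicate 2. RPL37A had 407 (354 to 467) and 158 (126 to 198) CPM, from 199 and 75 reads. RPL38, which takes part in the selective translation of some mRNAs, had 280 (237 to 331) and 111 (85.1 to 146) CPM. RPL14, RPL26, RPL31, RPLP1, RPLP0, RPL12, RPL15 and RPL26L1 were also higher in replicate 1. RPL35A had 45.0 (29.7 to 68.1) CPM in replicate 1 and 101 (76.1 to 134) in replicate 2.

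With counts and totals halved, because low counts of protein-coding genes were mostly even, 7 genes kept intervals that did not overlap, all higher in replicate 1: RPL19, RPL38, RPLP1, RPL37A, RPL26, RPL31 and RPL14. In that setting, 10.7% of the protein-coding genes were higher in replicate 1 and 10.3% in replicate 2. These 7 genes had between 0.345 and 0.475 of their replicate 1 CPM in replicate 2. Over the 42 genes with at least 10 reads summed, the median log2 ratio of CPM + 1, replicate 2 over replicate 1, was -0.12 (quartiles -0.60 and 0.32). Over all 5764 protein-coding genes that passed the same minimum, it was 0.0098 (quartiles -1.56 and 1.81), a wider spread. The median of summed reads was 132 in the former set and 28 in the latter.

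Many of these genes have near-identical processed copies, and reads with several alignments were set aside. Exact copies of each 50-base window of the coding sequence were therefore sought in the rest of GRCh38. Over the 52 genes, a median of 49.1% of windows had at least 1 exact copy, close to the 41.6% of the small-subunit genes and above the 0% of mitochondrial ribosomal protein genes and 0.756% of translation factors. In RPL21, RPL36A, RPL39 and RPL41 every window had one. With 75-base windows the median over the 52 genes was 25.9%, and the same 4 genes had a copy of every window. How the sequencing cycles were split into single or paired reads is not given in the sources used here. The sequences below show the window with the most copies of 3 genes with few or no reads and the first window of RPL38, which had no copied window. The window is in capitals, with up to 10 bases of coding sequence on each side.
RPL21 (chr13, coding bases 328 to 377, 21 copies elsewhere): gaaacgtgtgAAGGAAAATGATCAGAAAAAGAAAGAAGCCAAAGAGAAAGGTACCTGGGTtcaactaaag
RPL17 (chr18, coding bases 489 to 538, 11 copies elsewhere): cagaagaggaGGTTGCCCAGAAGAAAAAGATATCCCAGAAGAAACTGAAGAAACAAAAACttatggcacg
RPL7A (chr9, coding bases 101 to 150, 11 copies elsewhere): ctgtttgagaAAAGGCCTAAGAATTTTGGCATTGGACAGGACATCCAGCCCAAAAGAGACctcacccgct
RPL38 (chr17, coding bases 1 to 50, 0 copies elsewhere): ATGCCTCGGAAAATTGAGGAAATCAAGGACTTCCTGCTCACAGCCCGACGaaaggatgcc
RPL36A (ENSG00000241343) and RPL17 (ENSG00000265681) had 0 reads in both libraries, RPL21 (ENSG00000122026) had 0 and 4, and RPL7A (ENSG00000148303) had 2 and 4. Their share of copied windows was 100%, 90.1%, 100% and 74.0%. RPL17 and RPL36A also share 611 and 333 exon bases on their own strand with readthrough genes. These are RPL17-C18orf32 and RPL36A-HNRNPH2, both at 0 in both libraries. A read that fits both genes of such a pair is counted for neither by HTSeq's default. Such sharing was not particular to genes without reads. RPL36 shares 400 bases with HSD11B1L and had 281 and 254 reads, and RPL26 shares 360 and had 80 and 28. The part that shared exon plays was not tested. A count of 0 for RPL36A, RPL17 or RPL21 does not show that the mRNA was absent.

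Leaving out the paralogues named L or L1, the 11 genes with under 10% of windows copied had a median of 46.7 CPM per kilobase, the 27 genes from 10% to 90% had 44.6 and the 8 genes with at least 90% had 11.0. RPL7, with 99.7% of windows copied, was among the 10 highest genes. The Spearman correlation between the share of copied windows and the level was -0.24 over these 46 genes and -0.041 over all 52. Between the GC content of the coding sequence and the level it was 0.609 over the 46 genes, 0.539 over all 52 and 0.276 over the 35 small-subunit genes. These correlations are across genes of the same 2 libraries, and the parts of copied sequence and base composition were not tested.

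**Figure D3:**
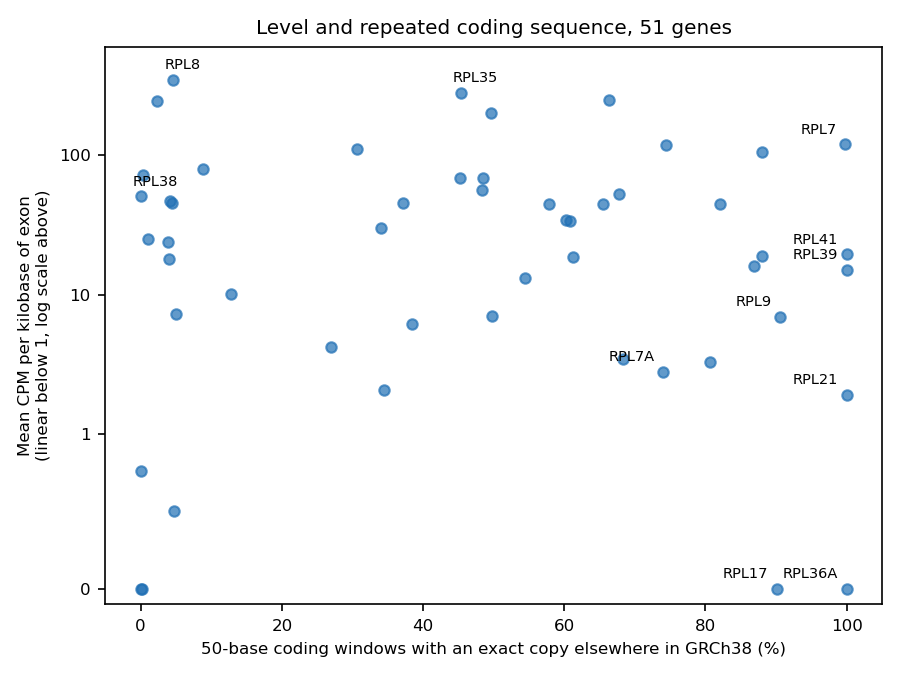
Share of 50-base coding windows with an exact copy elsewhere in GRCh38 (x axis, %) and mean CPM per kilobase of exon over both libraries (y axis, linear below 1 and log scale above) for 51 of the 52 genes. RPL17, RPL21 and RPL36A are low at the right edge, while RPL7 is high there.

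Pseudogenes named after the 52 genes numbered 1104 in the tables, and 52 of them (4.71%) had a read in either library. Of the 19629 protein-coding genes, 8296 had one, and the share over all pseudogenes is not given here. The pseudogenes of the family held 422 reads in replicate 1 and 305 in replicate 2. These were 8.14% and 7.18% of the reads on genes and pseudogenes of the family (7.66% ± 0.679, SD, n = 2). In RPL7A, RPL21, RPL17 and RPL36A the pseudogenes had more reads than the gene in both libraries. RPL7AP6, a processed copy of RPL7A (chr14:69885340-69886140), alone had 24 and 48 reads, and all pseudogenes of RPL7A had 33 and 63, beside 2 and 4 for the gene. The pseudogenes of RPL21, 133 in number, had 30 and 18 reads, beside 0 and 4. RPL36AP37 (chr11:16974693-16975013) had 20 and 14 reads, beside 0 in RPL36A. The pseudogenes of RPL17 had 20 and 15 reads, beside 0.

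For RPL41 the pseudogenes had 20 reads in replicate 1 and 1 in replicate 2, beside 16 and 5 for the gene. RPL13P12 (chr17:17383377-17384012) had the most reads of any of these pseudogenes when both libraries were summed, 81 in replicate 1 and 24 in replicate 2, while RPL13 had 373 and 380. In replicate 2 alone, RPL7AP6 had more, with 48. RPL29P4 (chr6:117998975-117999448) had 46 and 28 reads, beside 54 and 48 for RPL29. Whether reads on a pseudogene came from its own transcript or from the mRNA of the gene was not tested.

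**Figure D4:**
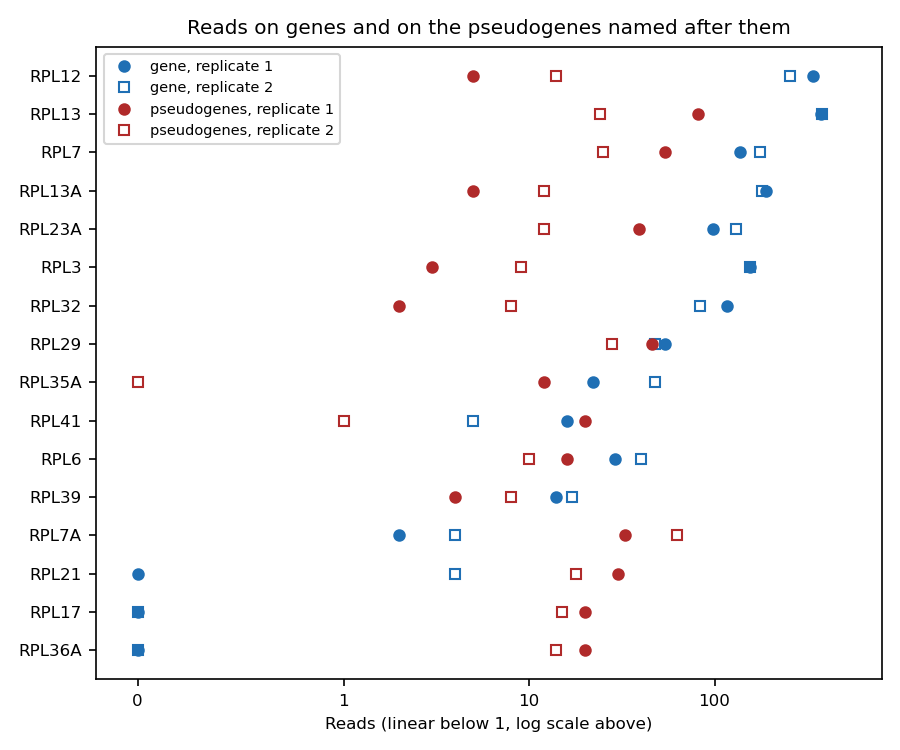
Reads (x axis, linear below 1 and log scale above) on genes and on all pseudogenes named after each, in both libraries, for 16 genes whose pseudogenes had at least 10 reads summed. The pseudogenes lie to the right of the gene in both libraries for RPL7A, RPL21, RPL36A and RPL17.

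Beside the large subunit, 23 of 35 small-subunit genes (65.7%) had reads in both libraries, with a median of 22.2 CPM per kilobase. Their summed share of protein-coding counts was 17.3% ± 3.12 (SD, n = 2), of which RPS29 took the greater part. Without RPS29, left out after its value was seen, it was 0.929% ± 0.104 (SD, n = 2), below the 1.53% of the large subunit in both libraries. These are sums over sets of unequal size, 35 small-subunit genes before that omission and 52 large-subunit genes. They are not levels per gene, and no gene was left out of the large subunit. The ribosomal proteins of mitochondria had reads in both libraries for 22 of 78 genes (28.2%), with a median of 1.23 CPM per kilobase, and none was among the 500 highest. Of the EIF and EEF translation factors, 28 of 53 (52.8%) had reads in both, with a median of 5.10 CPM per kilobase.

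**Figure D5:**
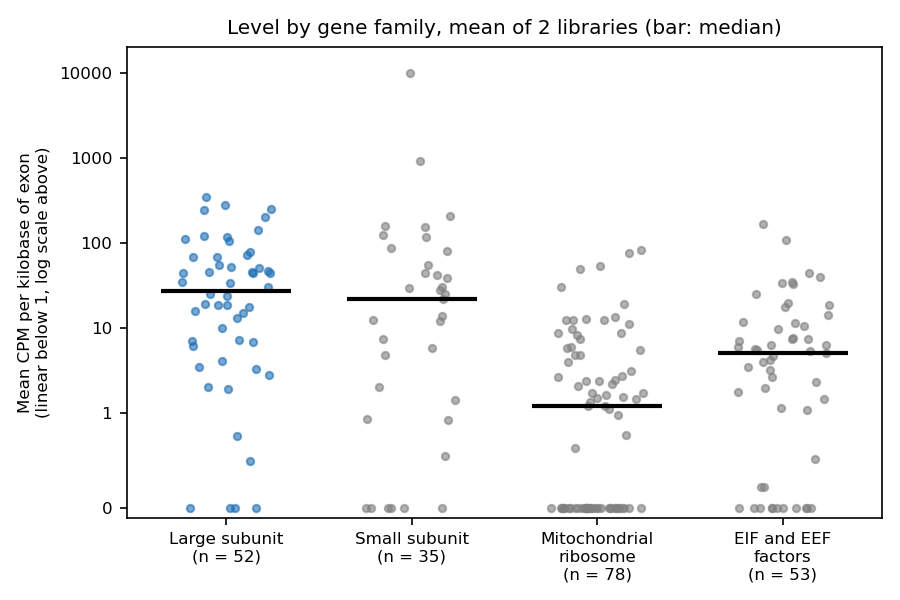
Mean CPM per kilobase of exon over the 2 libraries (y axis, linear below 1 and log scale above) for each gene of 4 families, with a bar at the median. The medians are 27.7 for the large subunit, 22.2 for the small subunit, 1.23 for mitochondrial ribosomal proteins and 5.10 for EIF and EEF factors.

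Outside the naming rule, RPL36AL, the intronless paralogue of RPL36A, had 6 and 24 reads. RPL36AL thus had reads in both libraries while RPL36A had none. Of 36 factors that assemble the large subunit, 22 had reads in both libraries, with a median of 4.54 CPM per kilobase, and 5 were at 0 in both. The highest were FTSJ3 with 156 and 138 reads, NOP16 with 47 and 89 and BOP1, a subunit of the PeBoW complex, with 74 and 81. Another 17 RNAs were taken as having a TOP tract, without applying the rule above to their starts. Of these, 11 had reads in both libraries, with a median of 5.05 CPM per kilobase. The highest of them were the elongation factor EEF2 (370 and 288 reads), TPT1 (140 and 188) and EEF1A1 (153 and 95), while EEF1G and EIF3F were at 0 in both.

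Within 19 of the 52 genes lie 40 snoRNA or scaRNA genes that are in the tables, small RNAs that guide the modification of ribosomal RNA and are released when the intron is spliced out. Of these, 1 had a read, SNORA65 in RPL12 with 2 reads in replicate 1 and 0 in replicate 2, and none had a read in both. Of the 40, 33 share bases with the merged exons of the host, and a read that fits both genes is counted for neither by HTSeq's default. The other 7 share none, and of these only SNORA65 had a read. The share over all snoRNA genes is not given here. Of the hosts themselves, RPL12 had 339 and 255 reads.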

How the data were processed

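The methods name the exoEasy Maxi kit and gravity flow chromatography (qEV) for the isolation of EVs. The authors mapped reads of 2 TruSeq stranded total RNA libraries of PC3 EVs to GRCh38. They counted the reads on Ensembl genes with HTSeq and deposited the counts without normalisation. Versions, strand setting and annotation release are not given in the sources used here. Rows of reads set aside (97.5% and 97.8% of each file) were left out of library totals. Of the gene identifiers, 56948 matched GENCODE release 44 and 1103 did not. From the deposited counts, CPM and CPM per kilobase of merged exon were computed, with 95% Wilson intervals per library (scipy 1.17.1) and the mean and SD of 2 replicates. The methods call the libraries biological replicates, without saying which steps they shared. The titles of both carry the preparation name EX1 with REP1 or REP2, while their descriptions name EX1 and EX2, so the SD may not measure separate preparations. TMM factors came from edgeR 4.0.16 in R 4.3.3. Windows of 50 coding bases were searched in both strands of GRCh38, and start sequences came from RefSeq. Python 3.11.15, pandas 2.3.3, numpy 2.4.6 and matplotlib 3.10.9 were used, and the interval comparison and window search were tested on simulated data or by text search. The genes, lists and rules were chosen with earlier results of these data known. The named genes were the 10 highest, every gene at 0 in a library, the paralogues with their parents, the role lists and genes with overlaps; other genes with intervals that did not overlap were named after their values were seen. Values of a few single genes and sequences are not reported here, and the plots by gene leave out 1 of the 52 genes.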

Additional observations from a re-analysis of the deposited data

How the results depend on the processing

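With each library alone, the genes with a read numbered 46 and 46, those among the 500 highest 18 to 23, the share of protein-coding counts 1.43 to 1.63%, the median level 24.6 to 32.3 CPM per kilobase and the pseudogene share 7.18 to 8.14%. The share was 0.901% of all gene counts, 2.43% without RPS29 and mitochondrial genes and 1.09% without genes overlapping the opposite strand. The median level was 55.1 CPM per kilobase with the longest transcript, 44.7 over the genes with reads in both libraries and 39.5 without the paralogues named L or L1. Among the 100 highest genes were 9. Intervals did not overlap for 7 genes with counts and totals halved. The halving and the omission of overlapping genes were chosen after seeing the data. Under the other alternatives (count minimums, TMM, pseudogene reads added, 99% intervals, shares of the family), counts stayed within 1.5 times and values within 1 SD between libraries. No paired analysis was possible because the total RNA libraries represent 1 condition. Depth limits the lowest genes, where 3 reads are 6.13 or 6.30 CPM, and reads with several alignments limit the genes with copied sequence.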
